A study of Oryza sativa with 2 samples.

Results

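The 8 ascorbate peroxidase (APX) genes of rice, APX1 to APX8, were followed in seedlings of 93-11, an indica cultivar. The gene set is defined by locus ID and not by a threshold on these values, though it was chosen with earlier results of the same data known. All 8 were found among the 37896 rows of both expression tables. Polyadenylated RNA was sequenced from whole wild-type plants that were 3 weeks old and had been kept in Yoshida nutrient solution under 10 h of light at 800 μmol per square metre and second and 14 h of dark. There were 2 libraries of this single group, replicate 1 and replicate 2, and no treatment, mutant or second cultivar, so the question was how the seedlings divided APX expression among the family members and how well the libraries agree on it. The labels do not say whether the libraries came from separate plants, and every standard deviation (SD, n = 2) below may be partly technical. With 2 libraries of 1 group no test was made.

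Ascorbate peroxidases are haem enzymes that reduce hydrogen peroxide to water with ascorbate as the electron donor. The oxidised ascorbate is then recycled by monodehydroascorbate reductase, dehydroascorbate reductase and glutathione reductase, which together with APX form the ascorbate-glutathione cycle. In green tissue the cycle works beside catalase and removes peroxide made by photosynthetic electron transport, photorespiration and respiration. Each APX isoform acts mainly in the compartment where it is located. By the definition of the gene set, APX1 and APX2 act in the cytosol, APX3 and APX4 in the peroxisome, APX5 and APX6 in mitochondria, and APX7 and APX8 in the chloroplast.

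The values are FPKM, by definition fragment numbers divided by transcript length and by the fragment total of the library. They are therefore scaled by length and can be compared between genes. The sources used here do not give the exact length and total that were used. Over all rows the FPKM sum was 741624 (replicate 1) and 668305 (replicate 2), with medians of 1.77 and 2.09 FPKM. The number of fragments behind a value is unknown, so no counting interval or detection floor can be given. Tissue markers were not analysed here, since the tables give loci by ID alone.

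The family was expressed, but very unevenly. At a detection level of 1 FPKM, 7 of the 8 genes were detected in both libraries, against 53.1% of all rows, and the exception was APX5. Of the 8 genes, 6 had a mean of at least 10 FPKM, against 27.4% of all rows. A mean of at least 100 FPKM was found for 4 genes, APX1, APX2, APX4 and APX8, against 2.63% of all rows. These 4 genes gave 93.9% of the summed APX level in replicate 1 and 93.2% in replicate 2, and they include at least 1 member for the cytosol, the peroxisome and the chloroplast, but none for mitochondria. The highest member stood 414-fold above the lowest in replicate 1 and 524-fold above it in replicate 2. Together the 8 genes held 0.126% of all FPKM in replicate 1 and 0.120% in replicate 2, a summed level of 869 ± 93.9 FPKM.

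**Figure D1:**
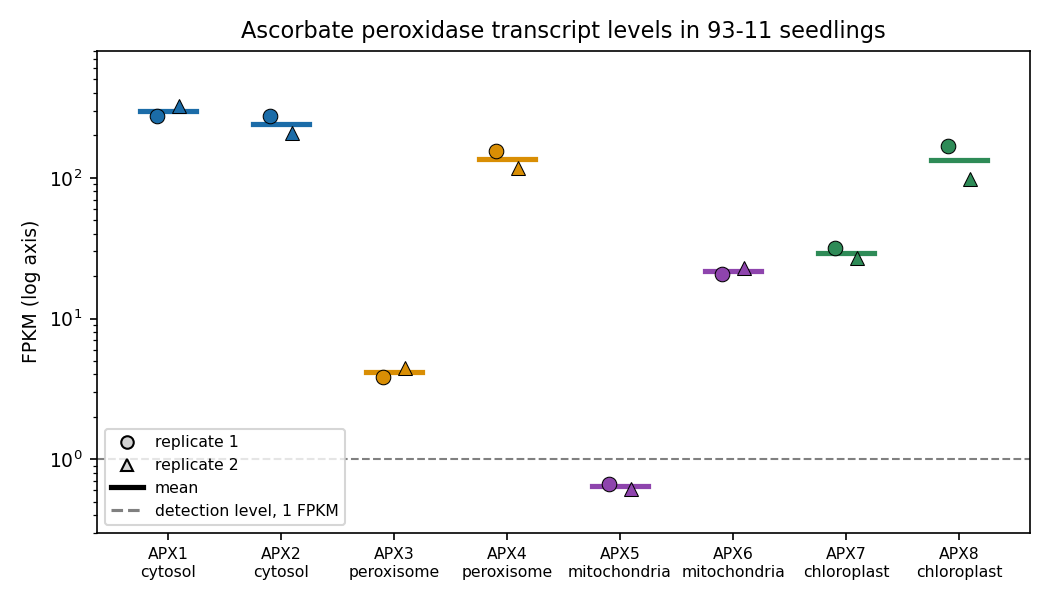
FPKM (log axis) of the 8 ascorbate peroxidase genes in replicate 1 (circles) and replicate 2 (triangles), with the mean as a bar, coloured by compartment; the dashed line marks the detection level of 1 FPKM. APX1, APX2, APX4 and APX8 lie near or above 100 FPKM, APX7 and APX6 between 20 and 32 FPKM, APX3 near 4 FPKM and APX5 under the line in both libraries.

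The cytosolic genes were the most abundant of the family. APX1 (LOC_Os03g17690, chromosome 3) stood at 276.0 FPKM in replicate 1 against 323.2 FPKM in replicate 2, a mean of 299.6 ± 33.4 FPKM. It ranked 241 among all rows by this mean. APX2 (LOC_Os07g49400, chromosome 7) stood at 276.7 FPKM in replicate 1 against 209.3 FPKM in replicate 2, a mean of 243.0 ± 47.7 FPKM, and ranked 317. In rice, loss of APX2 has been tied to short stature and to sensitivity to drought, salt and cold. The levels of both genes were nearly equal in replicate 1, where APX1 was 0.997 times APX2, whereas in replicate 2 APX1 was 1.54 times APX2. Their ranges overlapped, so which of the cytosolic genes is higher could not be told from these libraries.

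Of the peroxisomal genes, whose products carry a membrane anchor at the C-terminal end, APX4 was abundant and APX3 was not. APX4 (LOC_Os08g43560, chromosome 8) gave 156.2 FPKM in replicate 1 against 117.1 FPKM in replicate 2, a mean of 136.7 ± 27.6 FPKM and rank 665. APX3 (LOC_Os04g14680, chromosome 4) gave 3.83 FPKM in replicate 1 against 4.45 FPKM in replicate 2, a mean of 4.14 ± 0.437 FPKM and rank 15799. Their values did not overlap. APX4 was 40.8-fold above APX3 in replicate 1 and 26.3-fold above it in replicate 2, and took 97.0% ± 0.895 of the summed level of the pair. APX3 was detected in both libraries, at the 58.3 percentile of all rows.

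The mitochondrial genes were likewise dominated by 1 member, at a lower level. APX6 (LOC_Os12g07820, chromosome 12) stood at 20.7 FPKM in replicate 1 against 23.0 FPKM in replicate 2, a mean of 21.8 ± 1.63 FPKM and rank 5436. APX5 (LOC_Os12g07830, chromosome 12) stood at 0.668 FPKM in replicate 1 against 0.617 FPKM in replicate 2, a mean of 0.643 ± 0.0363 FPKM, at the 39.7 percentile. APX5 was thus above 0 but under the detection level in both libraries, the lowest of the family in each. APX6 was 30.9-fold above APX5 in replicate 1 and 37.3-fold above it in replicate 2, and took 97.1% ± 0.366 of the summed level of the pair.

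Among the chloroplast genes the division was less steep, and both were detected. APX8 (LOC_Os02g34810, chromosome 2), which encodes a form bound to the thylakoid membrane, gave 169.2 FPKM in replicate 1 but 97.9 FPKM in replicate 2, a mean of 133.5 ± 50.4 FPKM and rank 687. APX7 (LOC_Os04g35520, chromosome 4), which encodes the form of the stroma, gave 31.8 FPKM in replicate 1 against 26.9 FPKM in replicate 2, a mean of 29.4 ± 3.48 FPKM and rank 4054. Both were higher in replicate 1, APX8 by the larger factor. APX8 exceeded APX7 by 5.32-fold in replicate 1 and 3.64-fold in replicate 2, and took 81.3% ± 4.05 of the summed level of the pair.

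The order of the family by mean level was APX1, APX2, APX4, APX8, APX7, APX6, APX3 and APX5. Of the 28 possible pairs of members, 26 stood in the same order in both libraries. The exceptions were the neighbours APX1 and APX2 and the neighbours APX4 and APX8, whose order turned between the libraries. The other 5 steps of the order were larger than the summed SDs of the neighbours. The smallest of these was between APX7 and APX6, with means 7.53 FPKM apart against summed SDs of 5.11 FPKM. The steps from APX8 to APX7, from APX6 to APX3 and from APX3 to APX5 were 4.55-fold, 5.27-fold and 6.44-fold in the means.

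Added up by the compartment assigned to the product, the cytosolic genes held most of the APX transcript level. Their summed level was 552.8 FPKM in replicate 1 against 532.5 FPKM in replicate 2, or 59.1% and 66.4% of the family. The chloroplast genes summed to 201.0 FPKM in replicate 1 against 124.8 FPKM in replicate 2, or 21.5% and 15.5%. The peroxisomal genes summed to 160.1 FPKM and 121.6 FPKM, or 17.1% and 15.2%. The mitochondrial genes summed to 21.3 FPKM and 23.6 FPKM, or 2.28% and 2.94%. The cytosolic genes were therefore first and the mitochondrial genes last in each library, by margins wider than the spread between the libraries. The chloroplast genes and the peroxisomal genes were not told apart, with means of 18.5% ± 4.20 and 16.1% ± 1.39. These are shares of transcript level and not of enzyme, and in whole plants a level also depends on how much of the RNA each organ gave.

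**Figure D2:**
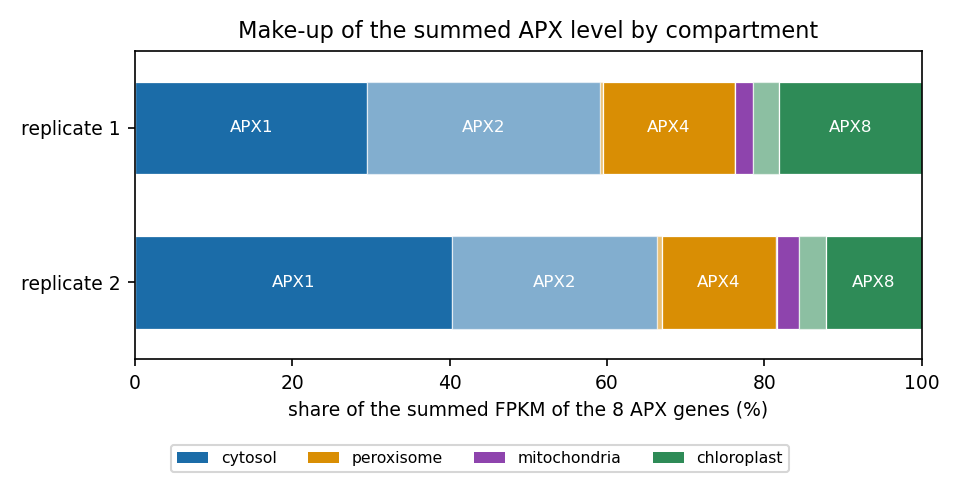
Share of the summed FPKM of the 8 ascorbate peroxidase genes (percent) in each library, coloured by compartment, with the darker shade for the more abundant gene of a compartment by mean level. The cytosolic genes fill 59.1% of replicate 1 and 66.4% of replicate 2; the unlabelled segments are, from left to right, APX3, APX6 with APX5 (too thin to see), and APX7.

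The libraries gave much the same level for most members. As deposited, the higher library exceeded the lower by 1.08-fold for APX5, 1.11-fold for APX6, 1.16-fold for APX3, 1.17-fold for APX1, 1.18-fold for APX7, 1.32-fold for APX2, 1.33-fold for APX4 and 1.73-fold for APX8. APX2, APX4, APX5, APX7 and APX8 were higher in replicate 1, and APX1, APX3 and APX6 were higher in replicate 2. With both libraries scaled to a common total each log2 ratio of replicate 1 over replicate 2 fell by 0.15, which turned the direction of APX5 (from 0.12 to -0.03) and of no other member. With scaling by the median of ratios it fell by 0.04 and no direction turned.

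A row was counted as apart where its libraries lay over 2-fold from each other on log2(FPKM + 1), once scaled to a common total, if its mean was at least 10 FPKM. Of the 6 members at that level, 0 were apart, against 6.52% of the 10366 rows tested. The median size of the difference was 0.28 (log2) for the 6 members and 0.23 for all rows tested. The widest was that of APX8, at 0.63 after scaling, and 14.2% of the rows tested differed by more. In size, the spread of the APX genes between the libraries was thus near that of the rows tested. The comparison was not matched for level. A mean of at least 100 FPKM was found for 4 of the 6 members but for only 998 of the 10366 rows. In direction, the median log2 ratio of replicate 1 over replicate 2 was 0.17 for the 6 members and -0.05 for all rows tested. After the same scaling 43.5% of the rows tested were higher in replicate 1. Of the 6 members, APX2, APX4, APX7 and APX8 were higher there, and APX1 and APX6 were lower. A single library on each side leaves these differences without a replicate check.

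**Figure D3:**
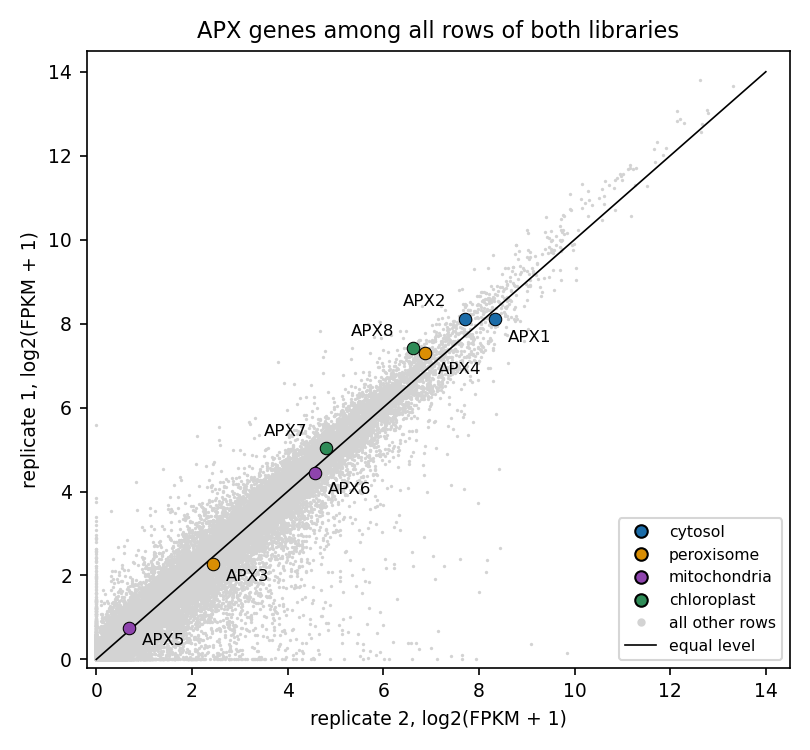
Level in replicate 1 against level in replicate 2, both as log2(FPKM + 1) as deposited, for all rows (grey) and the 8 ascorbate peroxidase genes (coloured by compartment); the line marks equal levels. The genes lie close to the line over the range from APX5 to APX1, and APX8, with 169.2 and 97.9 FPKM, is the farthest from it.

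APX6 and APX5 have consecutive locus numbers on chromosome 12, and in the RefSeq gene table of a japonica assembly 0 genes lie between the genes of these names. They were the only members next to each other, and the more than 30-fold gap between them is the gap between the mitochondrial genes given above. Such a gap is common between neighbouring loci. Among 17228 pairs of consecutively listed loci with at least 1 locus at a mean of 10 FPKM, 52.4% differed over 10-fold in the same direction in both libraries. In 39.6% of the pairs the loci differed in both libraries by more than 30.9-fold, the smaller of the folds of APX6 over APX5. A locus at 0 FPKM beside one above 0 counted as apart at any fold. Fragments that match more than 1 gene can be divided between similar copies, and the sources used here do not say how the authors treated them, so the low value of APX5 beside APX6 and the split within each compartment are uncertain to that extent.

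Most of the other neighbours of the APX genes were lower than they were, as is usual beside an abundant locus. The 6 members with a mean of at least 10 FPKM have 11 neighbours that are not APX genes, and 11 of them were lower in both libraries, against 79.9% of the neighbours of all rows at that level. For the 4 members with a mean of at least 100 FPKM the count was 8 of 8, against 97.1%. The loci that flank APX1 are LOC_Os03g17684, at 0.0789 and 0.633 FPKM in replicates 1 and 2, and LOC_Os03g17700, at 32.8 and 22.7 FPKM. Those that flank APX8 are LOC_Os02g34790, at 0.361 and 0.518 FPKM, and LOC_Os02g34830, at 14.3 and 11.9 FPKM. APX3, with a mean under 10 FPKM, lay otherwise. Its neighbour LOC_Os04g14654 was higher in both libraries, at 13.2 and 12.7 FPKM, and its neighbour LOC_Os04g14690 was lower in replicate 1, at 2.59 FPKM, and higher in replicate 2, at 9.04 FPKM.

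APX2 lies between LOC_Os07g49390, at 3.32 and 5.72 FPKM, and LOC_Os07g49410, at 21.3 and 19.5 FPKM. APX4 lies between LOC_Os08g43550, at 18.1 and 15.7 FPKM, and LOC_Os08g43570, at 1.03 and 0.791 FPKM. APX7 lies between LOC_Os04g35510, at 2.03 and 3.37 FPKM, and LOC_Os04g35530, at 5.95 and 5.26 FPKM. Each of these loci was lower than the APX gene beside it in both libraries. The outer neighbours of the chromosome 12 pair were low as well, LOC_Os12g07810 beside APX6 at 2.25 and 1.15 FPKM and LOC_Os12g07840 beside APX5 at 0.0797 and 0.166 FPKM.

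**Figure D4:**
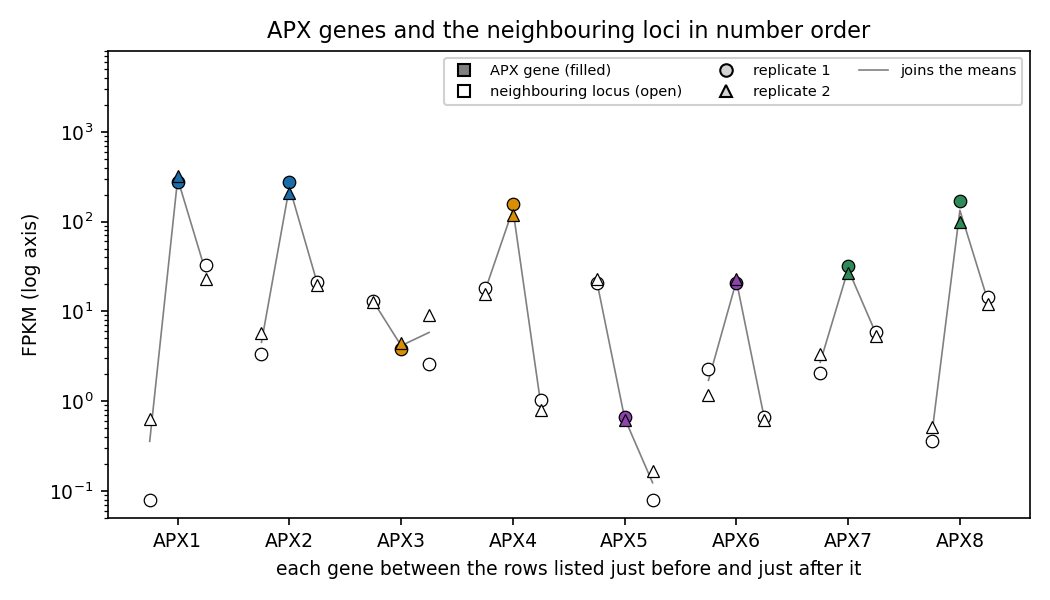
FPKM (log axis) of each ascorbate peroxidase gene (filled, coloured by compartment) between the loci listed just before and just after it by number (open), in replicate 1 (circles) and replicate 2 (triangles); grey lines join the means. APX1, APX2, APX4, APX6, APX7 and APX8 form peaks, APX3 lies below both of its neighbours by mean, and the open points at 20.7 and 23.0 FPKM left of APX5 are APX6.

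The loci closest in level to each member were found by distance on log2(FPKM + 1) over both libraries. With only 2 libraries of 1 group, this likeness is one of level and small library differences. For APX1 it was LOC_Os02g49700, at 274.2 and 314.6 FPKM, and for APX2 it was LOC_Os03g61130, at 283.9 and 212.4 FPKM. For APX4 it was LOC_Os03g13540, at 154.3 and 117.6 FPKM, and for APX8 it was LOC_Os01g72100, at 166.5 and 100.9 FPKM. Few loci lay within 0.1 (log2) of the abundant members, with 5 near APX1, 12 near APX2, 14 near APX4 and 2 near APX8. Around the other members such loci were more numerous, with 77 near APX6, 110 near APX7, 100 near APX3 and 156 near APX5. These counts depend on how many rows lie at each level, with 2.63% of all rows at a mean of at least 100 FPKM. Adding 1 FPKM also draws low values closer together. The loci closest to these other members were LOC_Os02g51450 for APX6, LOC_Os05g42280 for APX7, LOC_Os07g32020 for APX3 and LOC_Os04g47400 for APX5. Each lay within 0.01 (log2) of its member. The sources used here pair none of these loci with a name.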

How the data were processed

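The authors deposited 1 table per library with locus IDs and FPKM values, per the file headers; TopHat2 and Cufflinks are named, without version or role, in the submitters' processing notes. The sources used here do not give the genome build, the annotation or the filters. IDs have the form of a japonica annotation, so divergence of 93-11 could lower a value. The gene names and compartments belong to the definition of the gene set. RefSeq's gene table (ASM3414082v1, japonica) lists 0 of the IDs, but holds all 8 names, each on the chromosome that its ID codes for. Other genes of the ascorbate-glutathione cycle were not analysed here for lack of paired IDs, and no sequences were used.

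Levels are as deposited, with mean ± SD over 2 libraries. For the count of rows apart and the sizes given with it, differences between libraries were taken on log2(FPKM + 1) after scaling to the same total. This understates those of low genes. The folds and directions of single members between libraries were taken without the added 1. Neighbours in the order were told apart when the means differed by more than the summed SDs and the order held in both libraries. The loci named are the 8 members, the rows just before and after each by number, and the row closest in level. The steps between low values (1169 rows between 0.001 and 0.3 FPKM in both) gave a depth ratio of 1.13 (replicate 1 over replicate 2), in a search limited to similar depths. Of these rows 12.0% lay at a step there, against 4.11% at the median position tried, so the ratio rests on few rows. Absolute depth is unknown. The code for the calls and for this estimate was run on simulated data with large planted changes or plain counting noise. That setting is easier than these libraries, so it does not show how reliable either result is here. The members, lists and settings were chosen with earlier results of these data known. The tools were numpy 2.4.6, pandas 2.3.3 and matplotlib 3.10.9 under Python 3.11.15.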

Additional observations from a re-analysis of the deposited data

How the results depend on the processing

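No paired analysis was possible because both libraries belong to the same group. Taken from each library alone, the levels, the shares and the ratios within compartments stayed within 1 SD of the mean, as 2 values must. Of the 28 pairs, 28 stood in the order of the means in replicate 2 alone and 26 in replicate 1 alone. The number of members detected was 7 in each library alone, 8 at 0.1 FPKM and 6 at 5 FPKM. The shares of all rows detected at 0.1 and 5 FPKM are not given here. Both rescalings moved the levels by less than 1 SD and cannot move the shares. The number of members apart was 0 under both other scalings, pseudocounts of 0.1 and 0.01, and both wider level filters. Without APX1, the highest member, the shares became 42.8% for the cytosol, 28.3% for the chloroplast, 24.8% for the peroxisome and 4.08% for mitochondria, by construction. With 1 added to each FPKM, the log2 ratio of APX6 over APX5 was 3.80 in place of 5.09, since APX5 lies under 1 FPKM. At 1.5-fold in place of 2-fold, 1 member, APX8, was apart between the libraries, and 14.2% of the rows tested differed by more than APX8. The shares of all rows apart under these other settings are not given here, so these counts stand without their background.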
